A study of Mus musculus with 24 samples.

Results

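Late growth of mouse oocytes without Snf2h was measured as the change of each mRNA between growing oocytes of 50 to 55 µm (GO2) and fully grown oocytes above 70 µm (FGO). Snf2h, encoded by Smarca5, is the ATPase of the ISWI chromatin remodelling complexes, which slide and space nucleosomes. The knockout (KO) oocytes carried ZP3-Cre and a pair of floxed Snf2h alleles, and the wild-type (WT) oocytes carried the floxed alleles without Cre. The females were of mixed B6/129 strain, and their age is not given in the labels. Cre was driven by the promoter of Zp3, a zona pellucida gene that is switched on in growing oocytes. Since Cre was present in KO oocytes alone, an effect of Cre and an effect of Snf2h loss cannot be told apart. A gene was tested when it reached 1 RPKM (reads scaled to transcript length and to the reads of the library) in at least 2 of the 16 RNA-seq libraries, which held for 14557 of 16940 genes. The question was which growth changes still occur without Snf2h, so WT late growth, measured in other libraries, stands beside KO late growth throughout.

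There were 2 libraries of 20 oocytes in each group, namely KO FGO, KO GO2, WT FGO and WT GO2. The series also has 40 to 45 µm oocytes (GO1) and fully grown oocytes collected without hormone (nFGO) in both genotypes. FGO were collected after hormone stimulation of the females, so growth and hormone cannot be told apart in FGO against GO2. The molecule is labelled polyA RNA for nFGO and total RNA for the rest. Nothing in the labels says that the replicates came from separate females, so the p-values measure only the spread between these libraries.

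Oocytes grow while arrested in meiotic prophase. During growth they transcribe and store the mRNA and protein that later drive meiotic maturation and the first embryonic divisions, and they secrete the zona pellucida that surrounds them. Transcription falls silent towards the end of growth, as the chromatin condenses around the nucleolus, so later changes in the mRNA pool come largely from decay and from changes of the poly(A) tail.

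The libraries were close to each other in their totals and stood apart in a few ways that touch the results. RPKM totals were 919521 and 900616 in KO FGO and lowest in KO GO2, at 845605 and 832384, against 964523 and 994118 in WT FGO and 924633 and 927347 in WT GO2. All 10 defining oocyte markers were above 1 RPKM in every library, with a summed level of 14510 to 14760 RPKM in KO FGO and 19650 to 20500 RPKM in KO GO2. The 7 granulosa markers in the table summed to 46.4 to 51.9 RPKM in KO FGO and 26.9 to 34.1 RPKM in KO GO2. Cyp19a1 had 32.5 and 38.0 RPKM in KO FGO and 11.3 and 15.8 RPKM in KO GO2. Nr5a2 had 9.16 and 9.62 RPKM in KO FGO and 9.32 and 10.5 RPKM in KO GO2. Kitl had 2.63 and 2.50 RPKM in KO FGO and 3.47 and 5.07 RPKM in KO GO2. Fshr stayed at or below 1.57 RPKM and Inha at or below 0.47 RPKM in those 4 libraries. The 2 WT FGO libraries differed from each other in several oocyte genes. Zp2, for example, had 1035 and 2164 RPKM there, against 905 and 959 RPKM in KO FGO.

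The deleted gene was low at both stages of the KO. Smarca5 (mm10 chromosome 8, 80698507 to 80739497, minus strand) had 0.946 and 0.701 RPKM in KO FGO and 2.03 and 0.982 RPKM in KO GO2, against 48.7 and 13.9 RPKM in WT FGO and 37.1 and 38.3 RPKM in WT GO2. The library of WT FGO replicate 2 was therefore lower than every other WT library of the comparison, but above all KO libraries. Mt1, a metallothionein, had 1630 and 2490 RPKM in KO FGO and 1500 and 1310 RPKM in KO GO2, against 3.32 and 7.70 RPKM in WT FGO and 5.32 and 4.93 RPKM in WT GO2. Its level set the genotypes apart at both stages and was not called in KO late growth (log2 fold change 0.52 ± 0.31, standard error, limma adjusted p = 0.203).

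KO oocytes went through a large part of the transcript changes of late growth. In KO FGO against KO GO2, 6075 of the 14557 genes tested were called at a Benjamini-Hochberg adjusted p under 0.05 by limma, 41.7% of them all, with 3249 higher (22.3%) and 2826 lower (19.4%). Of these, 1037 rose (7.12% of all genes) and 1050 fell (7.21%) at least 2-fold. In WT FGO against WT GO2, 7048 genes were called (48.4%), with 1458 rises (10.0%) and 1326 falls (9.11%) of at least 2-fold. Of the KO calls, 3404 held in each of the fits that left out 1 of the 4 KO libraries. Fits with 1 library left out called fewer of all the genes tested. Counts of list members from such fits, given below, are therefore not matched to the shares of the full fit. Fold changes are on the scale of log2(RPKM + 1), which shrinks the change of a gene whose level is about 1 RPKM or lower.

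Most genes that changed in WT growth changed the same way in KO growth. Of the 1458 WT rises of at least 2-fold, 1057 were called higher in KO, or 72.5% against a background of 22.3% of all genes, 12 were called lower, and 389 were not called. Of the 1326 WT falls of at least 2-fold, 1039 were called lower in KO, or 78.4% against a background of 19.4%, and 8 were called higher. The share grew with the size of the WT change. It was 85.9% of the 334 WT rises of at least 4-fold and 89.7% of the 87 rises of at least 8-fold. Among the falls it was 93.6% of 236 and 97.5% of 40. Looked up the other way, 79.8% of the 1037 KO rises and 86.6% of the 1050 KO falls were called in the same direction in WT, where 26.3% of all genes were called higher and 22.1% lower. At any size of change, 2381 genes were called higher in both genotypes, 73.3% of the KO list and 62.2% of the WT list, and 2041 were called lower in both, 72.2% of the KO list and 63.4% of the WT list.

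**Figure D1:**
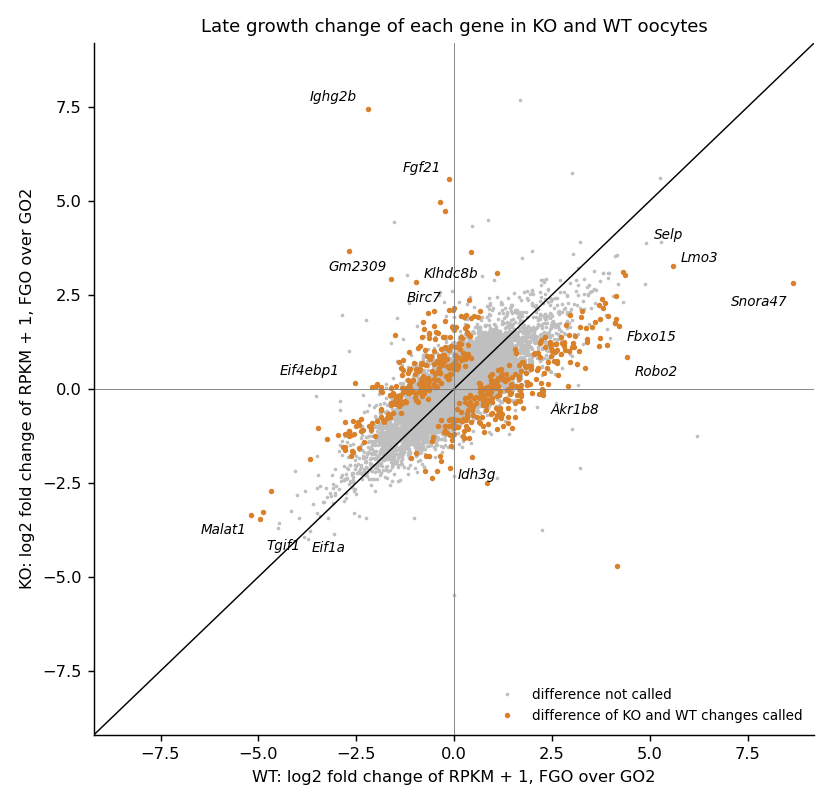
Log2 fold change of each of the 14557 genes in KO late growth (vertical) against WT late growth (horizontal), FGO over GO2; orange marks the 553 genes whose KO and WT changes differ by limma, grey the others, and the diagonal marks equal change. Most genes lie along the diagonal, and among strong WT rises such as Lmo3 and Robo2 the orange points lie below it.

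The size of the rises was smaller in KO. Since genes chosen for a large change in 1 comparison tend to look smaller in any other, genes were also chosen in libraries that neither comparison uses. Of genes at least 2-fold higher in WT nFGO than in WT GO1 (2106 genes), the median log2 fold change in late growth was 0.79 in KO and 1.09 in WT. For the 524 genes at least 4-fold higher it was 1.32 in KO and 2.05 in WT, and for the 146 genes at least 8-fold higher 1.78 in KO and 2.98 in WT, with a smaller rise in KO for 89.0% of them. The same held for genes chosen in the KO itself. Of 152 genes at least 8-fold higher in KO nFGO than in KO GO1, the median was 1.96 in KO and 2.59 in WT. Falls lay closer together. The 390 genes at least 4-fold lower in WT nFGO than in WT GO1 had a median of -1.49 in KO and -1.89 in WT, and the 291 such genes chosen in KO had -1.75 in KO and -1.93 in WT. These medians are descriptions of gene sets, which are not independent replicates, and carry no test.

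**Figure D2:**
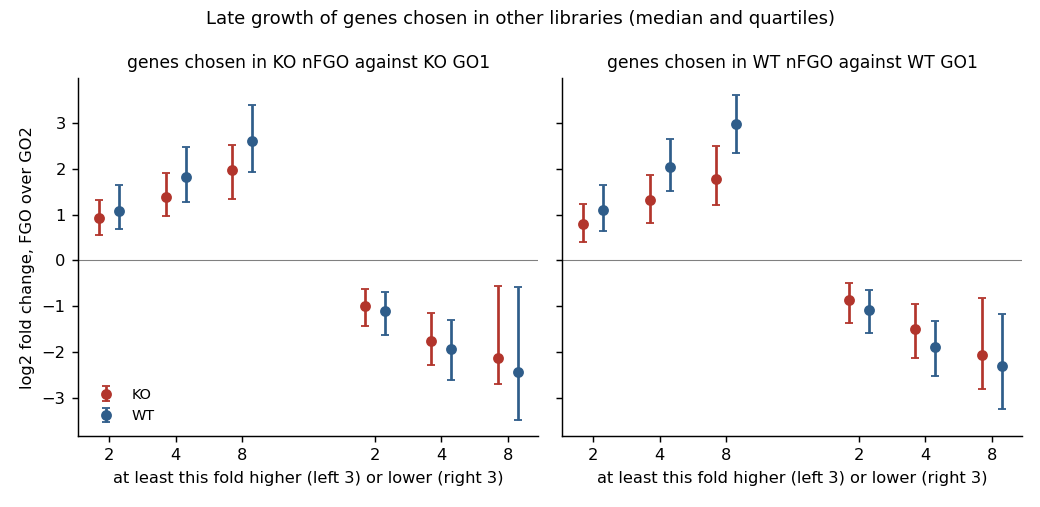
Median and quartiles of the log2 fold change in late growth, FGO over GO2, in KO (red) and WT (blue), of genes chosen in nFGO against GO1 of KO (left panel) or WT (right panel) for changes of at least 2, 4 and 8-fold. For rises of at least 8-fold chosen in WT the medians are 1.78 in KO and 2.98 in WT.

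A group of genes switched on late in growth rose in KO as well. Selp, encoding the adhesion molecule P-selectin (chromosome 1, 164115264 to 164150026, plus strand), had 74.3 and 71.3 RPKM in KO FGO and 3.07 and 5.27 RPKM in KO GO2, against 108 and 119 RPKM in WT FGO and 3.11 and 2.61 RPKM in WT GO2. Its log2 fold change was 3.87 ± 0.19 in KO (SE, limma adjusted p = 2.89e-07) and 4.90 in WT. The fully grown libraries stood above the growing ones in both genotypes with no overlap, which the choice of a large rise largely fixes. Lcp2, an adaptor protein of immune receptor signalling, had 42.4 and 20.2 RPKM in KO FGO and 1.72 and 0.514 RPKM in KO GO2, against 66.5 and 45.6 RPKM in WT FGO and 0.519 and 0.390 RPKM in WT GO2. Hist1h2ba, a testis-type H2B gene, had 32.7 and 27.8 RPKM in KO FGO and 0.778 and 2.41 RPKM in KO GO2, against 13.2 and 7.51 RPKM in WT FGO and 1.35 and 2.28 RPKM in WT GO2. None of these 3 genes passed the test of the difference between genotypes (adjusted p = 0.0535 for Selp, 0.166 for Lcp2 and 0.121 for Hist1h2ba).

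The largest rises by fold in KO also held genes whose level did not follow growth in the other libraries. Arid5b, a DNA-binding cofactor of a histone demethylase, had 38.2 and 63.9 RPKM in KO FGO and 0.062 and 0.026 RPKM in KO GO2, but 59.3 and 59.0 RPKM in the younger KO GO1 and 0.063 and 32.8 RPKM in KO nFGO. Ighg2b, an immunoglobulin heavy chain gene, had 171 and 183 RPKM in KO FGO and at most 0.052 RPKM in KO GO2, against 0.710 and 126 RPKM in WT FGO and 82.5 and 54.2 RPKM in WT GO2. Gm14295 had 249 and 211 RPKM in KO FGO and 0.149 and 0.117 RPKM in KO GO2, against 0.201 and 71.8 RPKM in WT FGO and 0.237 and 5.89 RPKM in WT GO2. In WT FGO the replicates of Ighg2b and Gm14295 thus lay further apart than the stages. The same pattern of 1 high and 1 low WT FGO library was seen for Gm15668, with 0 and 37.1 RPKM, for 1700021F07Rik, with 0.898 and 20.8 RPKM, and for Ighg3, with 0.057 and 21.9 RPKM. Immunoglobulin genes, with Ighv1-46 among the 12 largest KO rises too, have near-identical copies, and how reads were shared among copies is not given in the sources used here.

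The largest falls were shared with WT. Tgif1, a homeobox repressor of transforming growth factor β signalling (chromosome 17, 70844205 to 70853546, minus strand), had 3.16 and 2.83 RPKM in KO FGO and 59.8 and 49.2 RPKM in KO GO2, against 6.69 and 4.62 RPKM in WT FGO and 79.0 and 88.6 RPKM in WT GO2. The log2 fold change was -3.79 ± 0.16 in KO (SE, limma adjusted p = 1.66e-07) and -3.69 in WT. Eif1a, a translation initiation factor whose family also has copies transcribed in the 2-cell embryo, had 1.07 and 0.582 RPKM in KO FGO and 27.9 and 25.9 RPKM in KO GO2, against 0.866 and 0.772 RPKM in WT FGO and 22.9 and 27.1 RPKM in WT GO2. Cct6a, a subunit of the cytosolic chaperonin that folds actin and tubulin, fell by 3.997 in KO and by 3.72 in WT on the log2 scale. Ldhc, the germ-cell lactate dehydrogenase, had 9.41 and 6.27 RPKM in KO FGO and 83.1 and 96.6 RPKM in KO GO2, and its changes were -3.38 in KO and -3.42 in WT. Crym, Selenos, Nmrk1, Saxo1os, Zfp707, Zfp972 and Tceal8 were also among the 12 largest KO falls, with changes between -3.86 and -3.39. For none of these 11 genes was the difference between KO and WT called. For the twelfth, Id3, an inhibitor of basic helix-loop-helix factors downstream of bone morphogenetic proteins, the fall was smaller in KO. Id3 had 9.83 and 7.59 RPKM in KO FGO and 112 and 99.1 RPKM in KO GO2, against 6.28 and 2.78 RPKM in WT FGO and 145 and 183 RPKM in WT GO2 (difference 1.502 ± 0.37, SE, limma adjusted p = 0.0465). That call was lost on leaving out any 1 of the 8 libraries except WT FGO replicate 1, with a limma adjusted p of 0.0695 (without WT GO2 replicate 1) to 0.162 (without KO GO2 replicate 2).

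**Figure D3:**
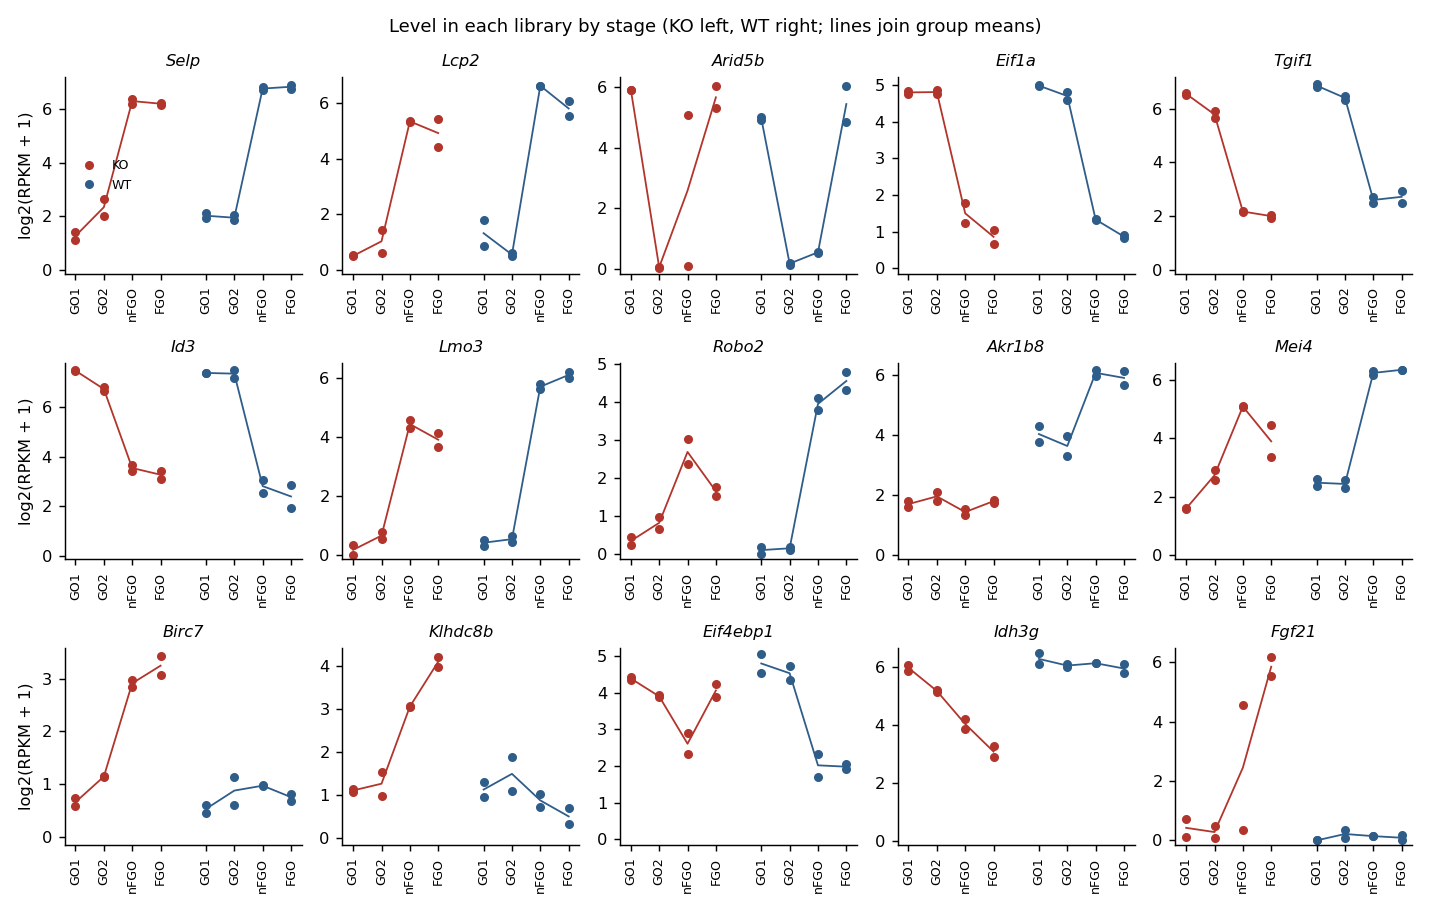
Level of 15 genes in every library as log2(RPKM + 1), by stage from GO1 to FGO, KO (red) left and WT (blue) right; dots are libraries and lines join group means. Selp and Lcp2 rise and Eif1a, Tgif1 and Id3 fall in both genotypes, Robo2, Akr1b8 and Mei4 are lower in KO FGO than in WT FGO, and Birc7, Klhdc8b and Fgf21 are higher in KO FGO.

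The late growth changes of KO and WT were also tested against each other. The difference, KO change minus WT change, was called for 553 genes, 3.80% of those tested, with 275 more positive in KO (1.89%) and 278 more negative in KO (1.91%). Of the 278, 111 changed in WT and were not called in KO, 81 changed the same way with a smaller change in KO, 46 changed in KO alone by call, 31 changed in opposite directions and 9 changed the same way with a larger change in KO. Of the 275, 93 changed in WT and were not called in KO, 84 changed in KO alone by call, 55 had a smaller change in KO, 31 had opposite directions and 12 had a larger change in KO. Among the WT rises of at least 2-fold, the difference was called for 162 genes, and it was negative for 161 of them. Among the WT falls of at least 2-fold it was called for 110 genes, and it was positive for 109 of them. Since these genes were chosen for their change in the WT libraries that also enter the difference, the choice largely fixes these signs. Of the KO rises of at least 2-fold, 62 had a positive and 54 a negative called difference, and of the KO falls 29 a positive and 36 a negative one. Leaving out any of the 8 libraries moved the count of 553 by more than 1.5 times. It was 258 without KO FGO replicate 1, 226 without KO FGO replicate 2, 300 without KO GO2 replicate 1, 125 without KO GO2 replicate 2, 356 without WT FGO replicate 1, 317 without WT FGO replicate 2, 311 without WT GO2 replicate 1 and 170 without WT GO2 replicate 2. A set of 107 genes was called in all 8 of these fits.

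Of the genes that reached 5 RPKM in a group mean and were called in all 8 of these fits, 47 had a positive and 48 a negative difference. The largest negative ones were genes that WT oocytes raised late in growth and KO oocytes raised less or not by call. Robo2, a receptor for Slit guidance ligands (chromosome 16, 73891839 to 74411825, minus strand), had 1.89 and 2.40 RPKM in KO FGO and 0.962 and 0.571 RPKM in KO GO2, against 18.9 and 26.8 RPKM in WT FGO and 0.130 and 0.076 RPKM in WT GO2. The log2 fold change was 0.84 in KO and 4.41 in WT, a difference of -3.58 ± 0.34 (SE, limma adjusted p = 0.0011). The KO rise was not called without KO GO2 replicate 2 (limma adjusted p = 0.114) or KO FGO replicate 2 (0.0974). Robo2 was also below WT in fully grown oocytes without hormone, at 4.10 and 7.08 RPKM in KO nFGO against 12.9 and 16.2 RPKM in WT nFGO. Akr1b8, an aldo-keto reductase, had 2.57 and 2.34 RPKM in KO FGO and 3.26 and 2.49 RPKM in KO GO2, against 68.6 and 49.6 RPKM in WT FGO and 14.7 and 8.68 RPKM in WT GO2. It did not pass the test in KO growth (log2 fold change -0.16, limma adjusted p = 0.643), and KO lay below WT at both stages.

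In the other genes of this kind KO FGO also lay below WT FGO with no overlap. Apart from Lmo3, these genes were chosen for a large negative difference. Both groups enter that difference, so the choice largely fixes this separation. Slc25a13, the mitochondrial carrier that exchanges aspartate for glutamate, had 5.19 and 9.32 RPKM in KO FGO and 5.79 and 7.47 RPKM in KO GO2, against 27.7 and 27.8 RPKM in WT FGO and 3.53 and 2.25 RPKM in WT GO2. Mei4, which is needed for the DNA breaks that start meiotic recombination, had 20.8 and 9.16 RPKM in KO FGO and 4.89 and 6.48 RPKM in KO GO2, against 80.1 and 80.7 RPKM in WT FGO and 4.99 and 3.87 RPKM in WT GO2. Recombination is finished before oocytes grow. Fbxo15, an F-box gene of pluripotent cells, had 18.9 and 12.9 RPKM in KO FGO and 3.42 and 5.11 RPKM in KO GO2, against 64.7 and 63.4 RPKM in WT FGO and 2.66 and 2.42 RPKM in WT GO2. Lmo3, a LIM-domain transcription cofactor (chromosome 6, 138362918 to 138581968, minus strand), rose by a log2 fold change of 3.26 in KO and 5.58 in WT, a difference of -2.32 ± 0.29 (SE, limma adjusted p = 0.00218). Reg3g, an antibacterial lectin, had 1.74 and 2.11 RPKM in KO FGO against 9.28 and 11.6 RPKM in WT FGO. Lmo3 was named as a large WT rise. Tnip3, Cntn6 and Prr32 were, with Snora47, among the 10 largest negative differences, and theirs were -2.47, -2.37 and -2.37. Snora47, a small nucleolar RNA, had 135 and 61.2 RPKM in KO FGO and at most 12.4 RPKM in KO GO2, against 317 and 511 RPKM in WT FGO and 0 RPKM in both WT GO2 libraries. RPKM of so short an RNA is uncertain, and no fold is given against WT GO2.

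A second group was higher in KO FGO than the WT course. Klhdc8b, a kelch-domain protein (chromosome 9, 108447636 to 108461581, minus strand), had 14.9 and 17.6 RPKM in KO FGO and 0.988 and 1.93 RPKM in KO GO2, against 0.622 and 0.252 RPKM in WT FGO and 1.15 and 2.71 RPKM in WT GO2. It rose in KO and fell in WT (difference 3.82 ± 0.38, SE, limma adjusted p = 0.0012). Birc7, an inhibitor of apoptosis protein also called livin, had 7.36 and 9.75 RPKM in KO FGO and 1.22 and 1.20 RPKM in KO GO2, against 0.766 and 0.612 RPKM in WT FGO and 1.21 and 0.530 RPKM in WT GO2. Arl8a, a small GTPase of lysosomes, had 9.89 and 8.31 RPKM in KO FGO and 3.06 and 2.48 RPKM in KO GO2, against 2.73 and 8.77 RPKM in WT FGO and 16.99 and 15.2 RPKM in WT GO2. It rose in KO and fell in WT, and KO FGO overlapped with WT FGO. Gm2309, Hist1h4d and Tuba1a, an alpha-tubulin, also rose in KO and fell in WT. The WT fall was not called without WT FGO replicate 2 (limma adjusted p = 0.073) or WT GO2 replicate 2 (0.117) for Klhdc8b, nor without WT FGO replicate 1 (0.0594) or WT GO2 replicate 1 (0.135) for Tuba1a. For Hist1h4d it was called only without WT FGO replicate 1, with a limma adjusted p of 0.0796 (without WT GO2 replicate 2) to 0.245 (without WT FGO replicate 2) otherwise. Cldn9, a tight junction claudin, rose in KO and was not called in WT.

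Other genes of this group fell in WT and fell less, or were not called, in KO. Eif4ebp1, which encodes 4E-BP1, the repressor of cap-dependent translation that mTOR inactivates, had 13.8 and 17.7 RPKM in KO FGO and 14.2 and 13.6 RPKM in KO GO2, against 2.75 and 3.15 RPKM in WT FGO and 25.3 and 19.2 RPKM in WT GO2. In oocytes without hormone Eif4ebp1 had 6.39 and 4.01 RPKM in KO nFGO and 2.27 and 4.01 RPKM in WT nFGO, where the genotypes touched. Jund, an AP-1 transcription factor, had 5.61 and 5.33 RPKM in KO FGO and 5.53 and 4.95 RPKM in KO GO2, against 0.950 and 1.17 RPKM in WT FGO and 7.98 and 7.71 RPKM in WT GO2. E330020D12Rik fell in both genotypes, by 1.03 in KO and by 3.48 in WT on the log2 scale. Malat1, a nuclear long noncoding RNA and the largest WT fall, had 85.0 and 60.8 RPKM in KO FGO and 740 and 759 RPKM in KO GO2, against 23.8 and 32.5 RPKM in WT FGO and 1015 and 1074 RPKM in WT GO2 (difference 1.82 ± 0.38, SE, limma adjusted p = 0.0233). The call was kept without KO FGO replicate 2 or WT FGO replicate 2 and lost on leaving out any other 1 of the 8 libraries, with a limma adjusted p of 0.0586 (without WT GO2 replicate 1) to 0.0855 (without KO GO2 replicate 2).

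Members of the integrated stress response rose together in KO late growth. The list was written with earlier results of these data known, so its counts are no test of the pathway. This pathway lowers global translation while the transcription factor ATF4 is made and switches on genes of amino acid synthesis and transport. Of the 20 targets tested, 15 rose and none fell in KO (22.3% and 19.4% of all genes), whereas 4 rose and 4 fell in WT. The median log2 fold change was 0.70 in KO and 0.06 in WT, beside 0.04 over all genes in each genotype. Without KO FGO replicate 2, 8 of the 20 were called higher, and without each of the other KO libraries 11 to 15 were. Atf4 itself had 165 and 200 RPKM in KO FGO and 88.7 and 85.2 RPKM in KO GO2, against 79.0 and 90.3 RPKM in WT FGO and 78.0 and 73.1 RPKM in WT GO2. The KO FGO libraries lay above all others (difference 0.90 ± 0.15, SE, limma adjusted p = 0.00925, and 0.0527 without KO GO2 replicate 2). Asns, asparagine synthetase, had 10.5 and 16.8 RPKM in KO FGO and 2.12 and 1.24 RPKM in KO GO2, against 3.63 and 3.34 RPKM in WT FGO and 3.31 and 1.64 RPKM in WT GO2. Psat1, an enzyme of serine synthesis, had 2.14 and 4.17 RPKM in KO FGO and at most 0.344 RPKM in KO GO2.

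Fgf21, a secreted hormone that ATF4 is known to induce, changed most in this list. It had 45.5 and 70.7 RPKM in KO FGO and 0.063 and 0.390 RPKM in KO GO2, against 0.133 and 0 RPKM in WT FGO and 0.263 and 0.069 RPKM in WT GO2. The log2 fold change in KO was 5.57 ± 0.89 and the difference from WT 5.70 ± 1.26 (SE, limma adjusted p = 0.000434 and 0.0307), and the call of that difference was lost on leaving out any of the 8 libraries, with a limma adjusted p of 0.0668 (without KO FGO replicate 1) to 0.0973 (without KO FGO replicate 2). Without hormone 1 KO nFGO library had 22.6 RPKM and the other 0.267 RPKM. The Fgf21 promoter is shown because it was the only promoter of the list's 15 in the RefSeq table that holds the element TGATGNAAT, the binding sequence of ATF4 with a C/EBP partner, searched on both strands. It runs over chr7:45615441-45615740 (GRCm38.p6, minus strand), from 250 bases before the transcription start to 50 after it, with the element, here read on its other strand, in capitals.
Fgf21: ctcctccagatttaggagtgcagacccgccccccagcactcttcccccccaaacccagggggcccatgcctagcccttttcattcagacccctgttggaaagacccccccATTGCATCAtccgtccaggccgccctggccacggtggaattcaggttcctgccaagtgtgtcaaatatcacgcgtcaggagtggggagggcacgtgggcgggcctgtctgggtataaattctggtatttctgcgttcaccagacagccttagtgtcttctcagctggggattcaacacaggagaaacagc
The element was found in 43 of the 9039 promoters of tested genes in that table, or 0.476%. The match describes these letters and is no evidence of binding, and the promoters in which it was not found may hold the element elsewhere.

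Difference calls and the oocytes collected without hormone set limits to this list. Over all genes the difference was called for 3.80%, and it was positive for 1.89%. The difference between genotypes was called for 4 of the 20 members, all positive, namely Atf4, Chac1, Fgf21 and Psat1, and for 1 to 3 of them in the leave-one-out fits. Chac1, a glutathione-degrading enzyme chosen after its values were seen, rose by 0.50 in KO and fell by 1.16 in WT on the log2 scale. The KO rise was not called without KO FGO replicate 2 (limma adjusted p = 0.233), KO GO2 replicate 1 (0.14) or KO GO2 replicate 2 (0.11). In oocytes without hormone, set against the same KO GO2 libraries, 4 of the 20 were called higher and 2 lower (24.8% and 21.1% of all genes). The nFGO libraries are also labelled polyA RNA and the others total RNA, so hormone and RNA label cannot be told apart here. Atf4 had 105 RPKM in each KO nFGO library, and Asns had 4.85 and 1.75 RPKM. Granulosa markers, whose sum is given above for FGO, were higher in KO nFGO, at 63.7 to 72.4 RPKM, than in KO FGO, and their part in the result was not tested. The chaperone genes of the endoplasmic reticulum did not follow, where 22.3% of all genes rose and 19.4% fell in KO FGO against KO GO2. Of 23, 4 were called higher and 10 lower in KO, but 6 lower without KO GO2 replicate 1 or KO FGO replicate 1 and 5 lower without KO GO2 replicate 2. Hsp90b1, an abundant chaperone there, had 60.9 and 42.2 RPKM in KO FGO and 127 and 129 RPKM in KO GO2, against 82.9 and 126 RPKM in WT FGO and 137 and 155 RPKM in WT GO2. Xbp1, a transcription factor of the unfolded protein response, fell by 2.27 in KO and by 2.77 in WT. Herpud1, a component of protein degradation at that membrane, was low and rose in KO, with 3.65 and 4.30 RPKM in KO FGO and 0.508 and 1.08 RPKM in KO GO2.

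**Figure D4:**
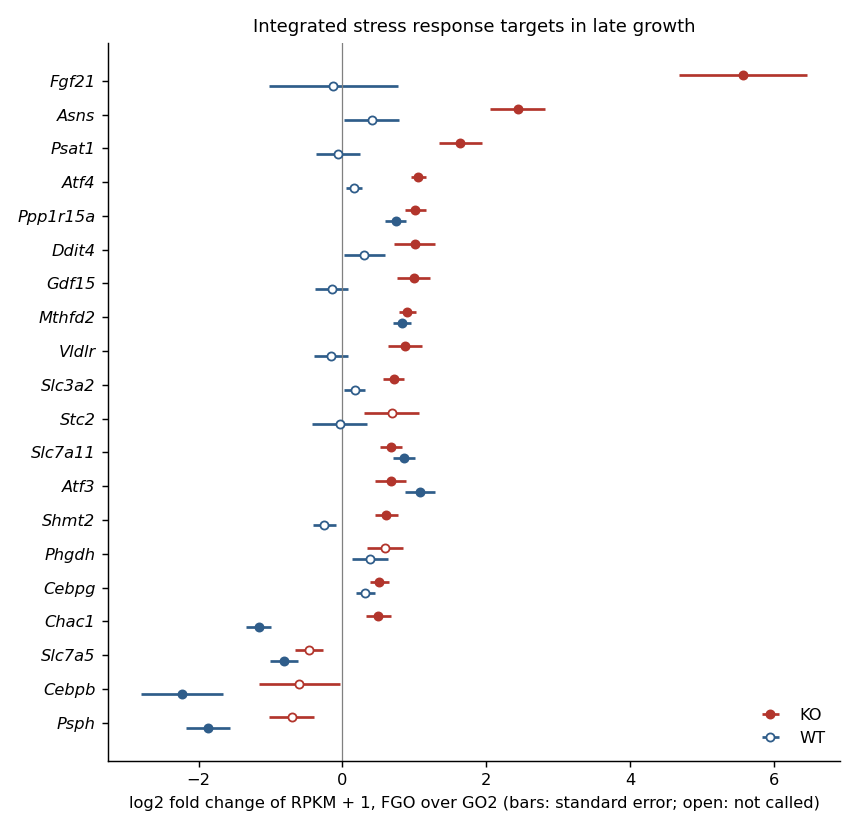
Log2 fold change in late growth, FGO over GO2, of the 20 integrated stress response targets in KO (red, upper) and WT (blue, lower), with standard errors; filled dots passed limma's adjusted p of 0.05. The KO dots are filled for 15 genes, all right of 0, and the WT dots for 4 genes on each side.

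Genes for the zona pellucida and for maternal storage moved in both directions, where 22.3% of all genes rose and 19.4% fell in KO. In KO, 33.3% of zona and oocyte-secreted factors rose and 41.7% fell, beside 18.8% and 34.4% of maternal-effect genes. The shares of all genes in WT were 26.3% and 22.1%. Of the 12 zona and oocyte-secreted factors, 4 rose and 5 fell in KO, the same counts as in WT, and the difference, called for 3.80% of all genes, was called for none by limma. Zp1 had 502 and 457 RPKM in KO FGO and 1065 and 1055 RPKM in KO GO2, against 451 and 508 RPKM in WT FGO and 1094 and 1207 RPKM in WT GO2. Zp2 fell by 1.47 and Astl, the egg protease ovastacin that cleaves ZP2 after fertilization, by 1.80 in KO on the log2 scale. Oosp3, an oocyte-secreted protein, rose in both, with 3415 and 3833 RPKM in KO FGO and 2081 and 1912 RPKM in KO GO2. Of the 32 maternal-effect genes, 6 rose and 11 fell in KO, beside 6 and 12 in WT. The difference was called for 1 of them, Tle6 of the subcortical maternal complex, chosen after its values were seen. Tle6 had 1360 and 1315 RPKM in KO FGO and 2551 and 2749 RPKM in KO GO2, against 1726 and 2128 RPKM in WT FGO and 2460 and 2680 RPKM in WT GO2 (difference -0.56 ± 0.13, SE, limma adjusted p = 0.037). That call was kept without WT FGO replicate 1 and lost on leaving out any other 1 of the 8 libraries, with a limma adjusted p of 0.0657 (without KO GO2 replicate 1) to 0.154 (without KO GO2 replicate 2). Nlrp14 had 1079 and 1173 RPKM in KO FGO and 3206 and 3042 RPKM in KO GO2, against 1372 and 2166 RPKM in WT FGO and 3772 and 4441 RPKM in WT GO2. Nlrp5, a core member of the subcortical maternal complex, and Padi6, a protein of the egg's cytoplasmic lattices, fell by 1.503 and 1.404 in KO, while in WT FGO the library of replicate 2 was high for both, with 408 RPKM beside 223 RPKM for Nlrp5. Gclm, a subunit of the enzyme that starts glutathione synthesis, fell by 1.13 in KO.

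Of 17 oocyte transcription factors, 5 rose and 5 fell in each genotype, where 22.3% and 19.4% of all genes did so in KO and 26.3% and 22.1% in WT. The difference was called for 1 of them, Sohlh2, a helix-loop-helix factor of early oocyte growth chosen after its values were seen. Sohlh2 had 5.59 and 5.00 RPKM in KO FGO and 2.38 and 1.60 RPKM in KO GO2, against 2.23 and 2.49 RPKM in WT FGO and 3.30 and 2.51 RPKM in WT GO2 (difference 1.30 ± 0.32, SE, limma adjusted p = 0.0484). Its call was lost on leaving out any of the 8 libraries, with a limma adjusted p of 0.0614 (without KO GO2 replicate 1) to 0.191 (without KO GO2 replicate 2). Figla, the helix-loop-helix factor that activates zona genes, had 92.6 and 122.5 RPKM in KO FGO and 233 and 223 RPKM in KO GO2, and Tbpl2, the oocyte's TATA-binding protein homologue, fell by 1.73. Esr2, an oestrogen receptor, rose by 1.38 in KO and 1.61 in WT. Of 42 regulators of mRNA storage, translation and decay, 14 rose and 12 fell in KO, a balance that turned with quantile normalization to 11 rises and 14 falls; 9 rose without KO GO2 replicate 2 or KO FGO replicate 1. Ythdf2, a reader of methylated mRNA that promotes decay, had 28.4 and 27.9 RPKM in KO FGO and 102 and 101 RPKM in KO GO2, against 27.5 and 37.2 RPKM in WT FGO and 98.2 and 93.5 RPKM in WT GO2. Patl2 and Ddx6, which hold mRNAs in translationally silent particles, fell by 1.82 and 1.55. Pabpc1, the poly(A)-binding protein of somatic cells, fell less in KO (difference 1.24 ± 0.26, SE, limma adjusted p = 0.0249). That call was kept without KO FGO replicate 1 or WT FGO replicate 2 and lost on leaving out any other 1 of the 8 libraries, with a limma adjusted p of 0.0558 (without KO GO2 replicate 1) to 0.111 (without KO GO2 replicate 2). Of 23 small RNA genes, 6 rose and 7 fell in KO, and 3 rose without KO FGO replicate 1. Ddx4, the germ-cell helicase Vasa, had 20.4 and 14.9 RPKM in KO FGO and 104 and 97.3 RPKM in KO GO2, and Piwil2 fell and Piwil1 rose in both genotypes. The KO rise of Piwil1 was not called without KO FGO replicate 1 (limma adjusted p = 0.0523) or KO GO2 replicate 1 (0.0522).

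The machinery of meiotic maturation changed in both directions, where 22.3% of all genes rose and 19.4% fell in KO. In WT 26.3% of all genes rose and 22.1% fell. The KO shares were 42.4% and 21.2% for the M-phase kinase network and 26.2% and 28.6% for spindle assembly genes. They were 31.2% and 15.6% for the anaphase-promoting complex and spindle checkpoint. Of 33 genes of the M-phase kinase network, 14 rose and 7 fell in KO, beside 12 and 4 in WT. Fewer of them rose with any 1 KO library left out, where fewer of all genes were called as well. Wee1, a kinase that inhibits CDK1, had 3.85 and 3.21 RPKM in KO FGO and 23.7 and 22.2 RPKM in KO GO2, against 5.94 and 4.59 RPKM in WT FGO and 23.04 and 26.3 RPKM in WT GO2. Cyclin E1 (Ccne1) and Cdc14b fell by 0.95 and 0.92, and Aurkc, the germ-cell Aurora kinase, rose by 0.90. The call of Ccne1 was lost without KO FGO replicate 2 (limma adjusted p = 0.0545), and that of Aurkc without KO FGO replicate 2 (0.118), KO GO2 replicate 1 (0.0526) or KO GO2 replicate 2 (0.0621). Of 32 genes of the anaphase-promoting complex and spindle checkpoint, 10 rose and 5 fell in KO, beside 10 and 6 in WT. With quantile normalization, 9 rose and 9 fell in KO. Cdc20, the activator of that complex, had 165 and 186 RPKM in KO FGO and 78.5 and 98.2 RPKM in KO GO2, against 107 and 108 RPKM in WT FGO and 52.96 and 52.88 RPKM in WT GO2. Bub1b, a checkpoint kinase, rose by 0.92 in KO and 1.59 in WT, and the difference did not pass the test (adjusted p = 0.0933). Mad2l1bp, which removes the checkpoint protein MAD2, had 47.9 and 43.2 RPKM in KO FGO and 26.4 and 22.8 RPKM in KO GO2, against 29.7 and 27.2 RPKM in WT FGO and 37.6 and 31.2 RPKM in WT GO2 (difference 1.13 ± 0.17, SE, limma adjusted p = 0.00613). Of 42 spindle assembly genes, 11 rose and 12 fell in KO, beside 16 and 9 in WT, and without KO GO2 replicate 1 10 rose and 7 fell in KO. Spire1, an actin nucleator, rose by 1.502 in KO and 1.561 in WT. Kif23, a kinesin of cytokinesis chosen after its values were seen, was not called in KO, with a log2 fold change of 0.03, and rose by 0.97 in WT (difference limma adjusted p = 0.00415).

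Of all genes tested, 22.3% rose and 19.4% fell in KO, and 26.3% rose and 22.1% fell in WT. Meiotic prophase genes, which act before growth, were near the KO shares, at 21.2% each way in KO. Of 33, 7 rose and 7 fell in KO, beside 10 and 11 in WT, and 3 fell in KO without KO GO2 replicate 1. Smc1b, a meiotic cohesin, had 4.16 and 4.20 RPKM in KO FGO and 21.2 and 17.5 RPKM in KO GO2. Tex11 and Tex12, of recombination and of the synaptonemal complex, rose by 1.74 and 1.46 in KO.

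**Figure D5:**
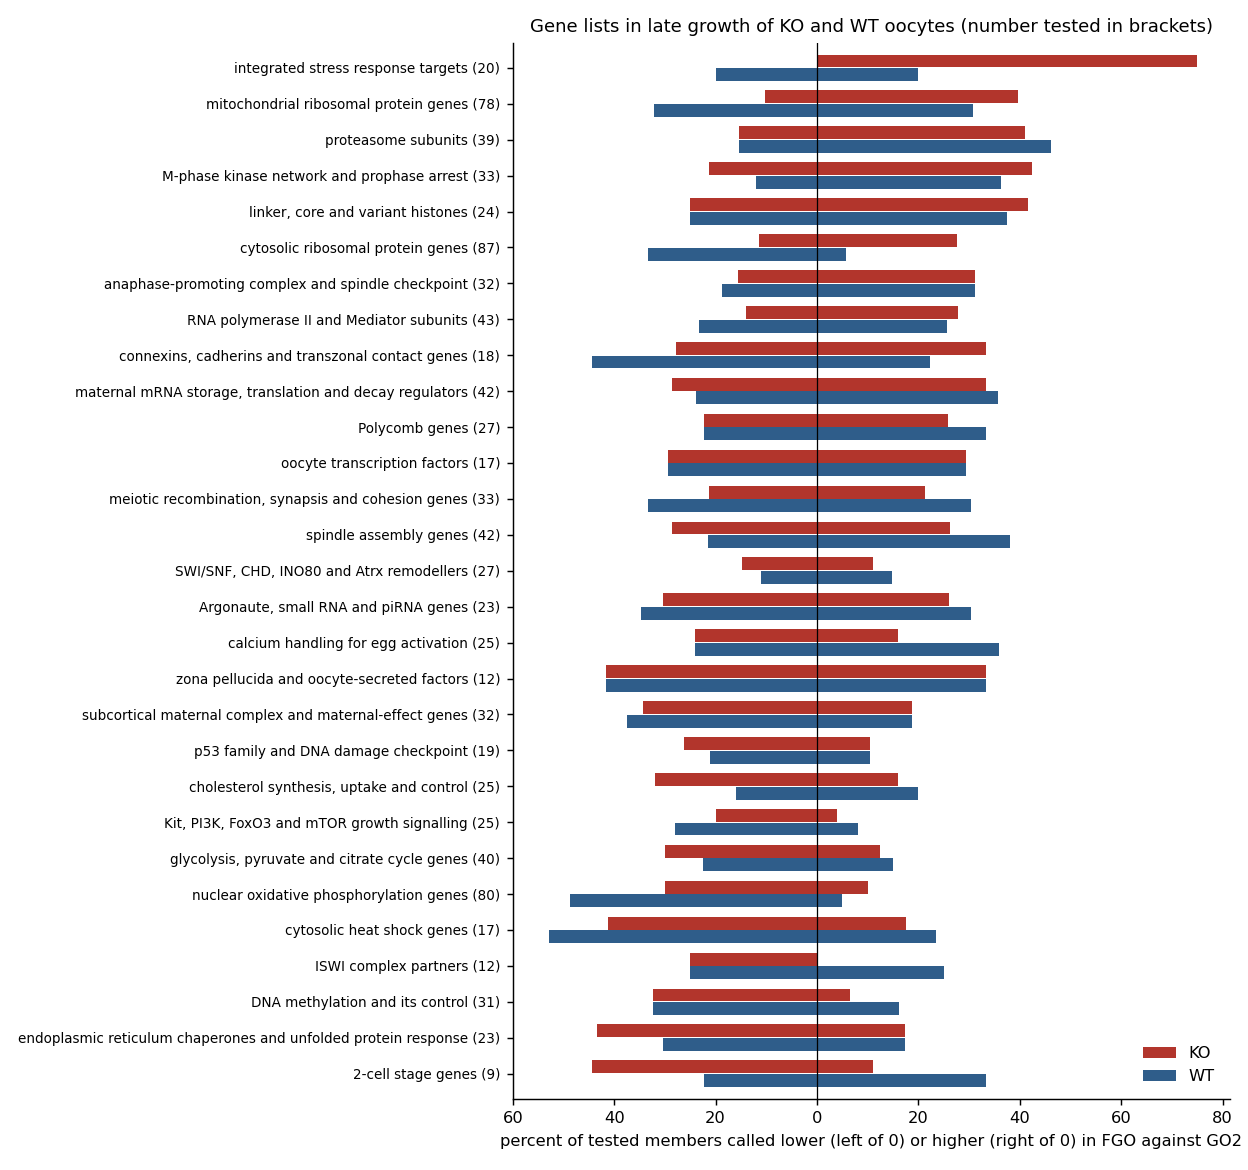
Percent of the tested members of 29 gene lists called lower (left of 0) and higher (right of 0) in FGO against GO2, in KO (red, upper bar) and WT (blue, lower bar), sorted by the KO balance. The top list, integrated stress response targets, has 15 of 20 members called higher and none lower in KO.

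Chromatin genes had few shared movements. In KO, 11.1% of remodeller genes other than ISWI rose and 14.8% fell, beside 25.9% and 22.2% of Polycomb genes. The shares were 6.45% and 32.3% for DNA methylation genes, and 22.3% and 19.4% for all genes. Of 12 ISWI partners, 3 rose and 3 fell in WT, where 26.3% and 22.1% of all genes did so. In KO 3 fell and none rose, where 19.4% of all genes fell. Without KO GO2 replicate 2, 1 fell, and without KO FGO replicate 2, 1 fell and 1 rose. Baz1a, the partner of Snf2h in the ACF and CHRAC complexes, had 11.7 and 14.4 RPKM in KO FGO and 32.7 and 33.1 RPKM in KO GO2, against 29.0 and 31.3 RPKM in WT FGO and 42.03 and 46.2 RPKM in WT GO2. Its fall was larger in KO (difference -0.74 ± 0.19, SE, limma adjusted p = 0.0491), and the call was lost on leaving out any of the 8 libraries, with a limma adjusted p of 0.053 (without KO FGO replicate 2) to 0.159 (without KO GO2 replicate 2). Of 27 other remodeller genes, 3 rose and 4 fell in KO (2 fell without KO GO2 replicate 2). Among those that rose was Chd4, the NuRD ATPase, with 36.6 and 32.7 RPKM in KO FGO and 14.5 and 15.3 RPKM in KO GO2. Of 27 Polycomb genes, 7 rose and 6 fell, but 2 fell without KO FGO replicate 2 and 3 without KO GO2 replicate 2. Of 31 DNA methylation genes, 2 rose and 10 fell, and at most 1 rose without any 1 of the KO libraries. Among those that fell was Kdm1b, the demethylase needed for maternal imprints, with 86.0 and 103 RPKM in KO FGO and 293 and 267 RPKM in KO GO2.

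Among 24 histone genes, 10 rose (41.7%) and 6 fell (25%) in KO, beside 9 and 6 in WT. Of all genes tested, 22.3% rose and 19.4% fell in KO, and 26.3% rose and 22.1% fell in WT. The difference, called for 3.80% of all genes, was called and positive for 4 of these 24. H2afz, the variant H2A.Z, had 75.2 and 68.7 RPKM in KO FGO and 224 and 226 RPKM in KO GO2, against 40.4 and 37.7 RPKM in WT FGO and 286 and 265 RPKM in WT GO2, a smaller fall in KO (difference 1.15 ± 0.18, SE, limma adjusted p = 0.0067). H2afv, a second H2A.Z gene, had 251 and 221 RPKM in KO FGO and 108 and 101 RPKM in KO GO2, against 131 and 138 RPKM in WT FGO and 107 and 105 RPKM in WT GO2. The linker histone H1f0 had 51.5 and 42.04 RPKM in KO FGO and 21.8 and 20.6 RPKM in KO GO2, against 19.7 and 21.2 RPKM in WT FGO and 19.8 and 19.6 RPKM in WT GO2. Hist1h1e, another linker histone, had 8.14 and 5.32 RPKM in KO FGO and stayed under 1 RPKM in KO GO2 and in all 4 WT libraries. H2afv and H1f0 were chosen after their values were seen, and the difference call of H1f0 was lost without KO GO2 replicate 2 (limma adjusted p = 0.0669) or WT GO2 replicate 2 (0.0501). Hist1h1a rose by 2.095 in KO and 1.232 in WT. Histone genes have near-identical copies, among which reads could be split.

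Ribosomal protein genes moved apart between genotypes, by small amounts. Of 87 cytosolic members, 24 rose and 10 fell in KO, whereas 5 rose and 29 fell in WT. Among all genes 22.3% rose and 19.4% fell in KO, and 26.3% rose and 22.1% fell in WT. With nFGO in place of FGO, 49 were higher and 7 lower in KO, and 19 higher and 21 lower in WT. The median log2 fold change was 0.13 in KO and -0.14 in WT, and the difference was called, always positive, for 11 members. Over all genes the difference was called and positive for 1.89%. The direction in KO depended on scaling, since with quantile normalization 12 rose and 19 fell, with a median of 0.01. Without KO FGO replicate 1, 14 rose, without KO GO2 replicate 2, 16 rose, and the 11 difference calls became 1 to 6 in the 8 leave-one-out fits. Rps23 had 49.1 and 34.1 RPKM in KO FGO and 179 and 161 RPKM in KO GO2, against 36.3 and 38.0 RPKM in WT FGO and 209 and 232 RPKM in WT GO2. Rpl9, Rpl10l and Rps4l also fell in both genotypes. Mitochondrial ribosomal protein genes had 31 rises and 8 falls of 78 in KO, beside 24 and 25 in WT, and 13 falls in KO with quantile normalization. Mrps31 rose by 1.20 and Mrps34 fell by 2.59 in KO. KO GO2 had the lowest RPKM totals of the 4 groups, and the part of this in the result was not tested. Ribosomal protein genes have many processed copies in the genome, among which reads could be split.

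More energy genes fell than rose in both genotypes. In KO, 10% of oxidative phosphorylation genes rose and 30% fell, beside 12.5% and 30% of glycolysis and citrate cycle genes. The shares of all genes were 22.3% and 19.4% in KO and 26.3% and 22.1% in WT. The difference was called and positive for 1.89% of all genes. Of 80 nuclear oxidative phosphorylation genes, 8 rose and 24 fell in KO, beside 4 and 39 in WT, and the 7 difference calls were all positive, but 1 to 5 in the 8 leave-one-out fits. With quantile normalization 4 rose and 40 fell in KO, and with nFGO in place of FGO the balance turned, with 19 higher and 16 lower. Uqcrc1, a core subunit of complex III, had 9.37 and 7.80 RPKM in KO FGO and 79.6 and 77.2 RPKM in KO GO2, against 4.34 and 6.24 RPKM in WT FGO and 70.2 and 79.4 RPKM in WT GO2. Cox6a2, a subunit of complex IV, rose by 1.25 in KO and 1.83 in WT. Of 40 genes of glycolysis and the citrate cycle, 5 rose and 12 fell in KO, beside 6 and 9 in WT, but 3 rose in KO without any 1 of its libraries, and 5 fell without KO GO2 replicate 1 or KO FGO replicate 1. Idh3g, a subunit of the mitochondrial isocitrate dehydrogenase (chromosome X, 73778963 to 73786897, minus strand), had 6.43 and 8.56 RPKM in KO FGO and 34.0 and 36.2 RPKM in KO GO2, against 68.1 and 54.1 RPKM in WT FGO and 63.3 and 67.4 RPKM in WT GO2. Idh3g fell in KO and was not called in WT (difference -1.995 ± 0.24, SE, limma adjusted p = 0.00218), and KO lay below WT at both stages. Got1, the cytosolic partner of the malate-aspartate shuttle, had 9.201 and 8.16 RPKM in KO FGO and 4.92 and 2.63 RPKM in KO GO2, against 50.3 and 59.0 RPKM in WT FGO and 18.1 and 17.5 RPKM in WT GO2. Its rise was called in both, in KO not without KO FGO replicate 1 (limma adjusted p = 0.0718) or KO GO2 replicate 2 (0.137), and the difference was not called (0.553).

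The remaining lists changed in KO as follows, where 22.3% of all genes rose and 19.4% fell (26.3% and 22.1% in WT). The KO shares, higher then lower, were 41% and 15.4% for the proteasome, 16% and 32% for cholesterol and 17.6% and 41.2% for heat shock genes. They were 27.9% and 14% for RNA polymerase II and Mediator, 4% and 20% for growth signalling and 10.5% and 26.3% for p53 genes. For calcium, contact and 2-cell genes they were 16% and 24%, 33.3% and 27.8%, and 11.1% and 44.4%. Of 39 proteasome subunits, 16 rose and 6 fell, beside 18 and 6 in WT. Psma2 had 586 and 583 RPKM in KO FGO and 384 and 375 RPKM in KO GO2, and Psmd13 fell by 2.61. Of 25 cholesterol genes, 4 rose and 8 fell in KO, beside 5 and 4 in WT, but 2 fell without KO GO2 replicate 1, 3 without KO FGO replicate 1 and 5 without KO GO2 replicate 2, with Pmvk and Acat2 falling by 1.46 and 1.05. The call of Acat2 was lost without KO GO2 replicate 1 (limma adjusted p = 0.0556). Of 17 cytosolic heat shock genes, 3 rose and 7 fell (4 fell without KO GO2 replicate 2), with Hsph1 at 33.4 and 40.3 RPKM in KO FGO and 124 and 125 RPKM in KO GO2. Of 43 RNA polymerase II and Mediator genes, 12 rose and 6 fell, and 3 fell without KO FGO replicate 2. Polr2d, a polymerase subunit, had 1226 and 1207 RPKM in KO FGO and 607 and 579 RPKM in KO GO2, against 1259 and 1261 RPKM in WT FGO and 649 and 628 RPKM in WT GO2. Of 25 growth signalling genes, 1 rose and 5 fell, but none rose without any 1 of the KO libraries, 2 fell without KO GO2 replicate 1, and 3 fell on leaving out replicate 2 of KO GO2 or of KO FGO. Among those that fell was the receptor Kit, with 26.9 and 37.4 RPKM in KO FGO and 59.7 and 58.5 RPKM in KO GO2. Of 19 p53 and checkpoint genes, 2 rose and 5 fell, but 1 fell without KO GO2 replicate 1 and 3 without KO FGO replicate 1. Mcl1, an anti-apoptotic BCL2 relative, fell by 1.79 in KO and 1.95 in WT, and Mdm4, an inhibitor of p53, rose to 4113 and 3576 RPKM in KO FGO, against 2482 and 2177 RPKM in KO GO2. Of 25 calcium genes, 4 rose and 6 fell, but 2 rose without KO GO2 replicate 1, KO GO2 replicate 2 or KO FGO replicate 1, and Calm3, a calmodulin gene, fell by 1.29 in KO and 1.32 in WT. Of 18 contact genes, 6 rose and 5 fell, but 2 fell without KO GO2 replicate 1 or KO FGO replicate 2, and 3 without KO GO2 replicate 2 or KO FGO replicate 1. Cd9, the egg tetraspanin needed for sperm fusion, had 162 and 143 RPKM in KO FGO and 534 and 544 RPKM in KO GO2, against 125 and 207 RPKM in WT FGO and 644 and 613 RPKM in WT GO2. Of 9 genes of the 2-cell stage, 1 rose and 4 fell, and Zscan4d had 27.6 and 16.4 RPKM in KO FGO and 4.99 and 9.29 RPKM in KO GO2.

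The genes whose WT change was reduced in KO also differed in length along the genome, which the choice did not use. The median span was 34.1 kb for the 161 WT rises with a more negative change in KO, beside 28.0 kb for all 1458 WT rises and 20.3 kb for all genes tested. It was 8.06 kb for the 109 WT falls with a more positive change in KO, beside 14.3 kb for all 1326 WT falls. For the KO rises and KO falls of at least 2-fold the median span was 19.4 kb and 18.1 kb. The 2 sets with a called difference were chosen partly by WT libraries that also enter that difference. These are descriptions with no test. A comparison of promoter base composition between these sets is void and not given, because the promoter table had an entry near the start of only 62.1% of the genes tested.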

How the data were processed

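RNA-seq libraries were made from 20 oocytes each with SMARTer ultra-low-input cDNA and Nextera XT, per the labels' protocols. The authors deposited 1 table of RPKM values per gene and library. The submitters' processing notes name Trim Galore 0.4.5, HISAT2 2.1.0, Cufflinks 2.2.1, Cuffnorm and the build mm10, without their roles. The RPKM values did not give back whole reads, so depth is unknown and no counting error is given. The table had 18060 lines and 16975 gene IDs, of which 35 with conflicting lines were left out.

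Values were fitted as log2(RPKM + 1) with limma 3.58.1 in R 4.3.3, using 1 mean for each of the 8 groups over all 16 libraries and a variance trend. Genes with at least 1 RPKM in 2 libraries were tested, and p-values were adjusted over all of them by Benjamini-Hochberg. The fit was tested on simulated data in which 200 of 14557 genes changed in KO late growth, with normal noise of the fit's own variances. Of genes changed 1.5-fold, 2-fold and 4-fold, 26.9%, 82.1% and 98.5% were recovered, with 2.13% of calls false. In the data 41.7% of genes were called, which makes the adjusted p less strict. These shares therefore do not carry over to the data.

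Named genes were the 12 largest rises and 12 largest falls of KO growth, up to 4 called members of each gene list, the 10 largest differences in each direction, the 8 largest WT rises and falls, Smarca5 and Mt1. The growth genes and differences had to reach 5 RPKM and to stay called with each library left out. The members, lists and rules were chosen with earlier results of these data known. Alternatives were the pseudocount, the filter, the scaling, the variance trend, a replicate block, nFGO in place of FGO and leaving out each library. Chromatin accessibility data of the series were not used here. A gene that the naming rule chose is not reported here.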

Additional observations from a re-analysis of the deposited data

Results flagged for a closer look

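The late growth change of 553 genes differed between KO and WT by the test of the difference itself (limma adjusted p under 0.05). Of the genes named by rule and the members of the integrated stress response and histone lists, 43 were among them. The difference was positive for 29 and negative for 14. Tle6, Sohlh2 and Kif23, whose called differences are described above, are outside this set and not listed below. Which of the 43 lost their call when 1 library was left out is given below. Values are the log2 fold change of KO late growth minus that of WT late growth.

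The largest positive differences were 9.64 for Ighg2b, 5.70 for Fgf21, 5.31 for Ighg3, 4.96 for Ighv1-46, 4.55 for Gm2309, 3.82 for Klhdc8b, 2.92 for Arl8a, 2.71 for Eif4ebp1, 2.59 for Hist1h4d and 2.45 for E330020D12Rik. Further positive differences were 2.23 for Birc7, 2.195 for Tuba1a, 2.19 for Cldn9, 2.16 for Jund, 2.13 for Hist1h1e, 1.97 for Tcp11l1, 1.90 for Herpud1, 1.82 for Malat1, 1.70 for Psat1 and 1.66 for Chac1. The smallest of the 29 were 1.61 for Gm37376, 1.502 for Id3, 1.24 for Pabpc1, 1.15 for H2afz, 1.13 for Mad2l1bp, 1.05 for H1f0, 0.90 for Atf4, 0.86 for Rpl9 and 0.83 for H2afv. The immunoglobulin genes Ighg2b, Ighg3 and Ighv1-46 have near-identical copies, and their replicates in WT FGO lay far apart for Ighg2b and Ighg3. The call of the difference was lost on leaving out at least 1 library for Ighg2b, Fgf21, Ighg3, Ighv1-46, Herpud1, Malat1 and Psat1. It was lost likewise for Gm37376, Id3, Pabpc1, H1f0, Atf4 and Rpl9, and among the negative differences for Baz1a and Rgn. The other genes of this set kept their call in each such fit.

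The negative differences were -0.74 for Baz1a, -1.32 for Rgn, -1.995 for Idh3g, -2.32 for Lmo3, -2.37 for Prr32, -2.37 for Cntn6, -2.43 for Akr1b8, -2.47 for Tnip3, -2.52 for Fbxo15, -2.75 for Mei4, -2.77 for Reg3g, -2.83 for Slc25a13, -3.58 for Robo2 and -5.86 for Snora47. The value of Snora47 depends on the pseudocount, since both WT GO2 libraries are listed at 0. No group had enough libraries for a test of single outlying values.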

How the results depend on the processing

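With other pseudocounts, filters, scalings and variance models and with nFGO in place of FGO, 4970 to 6674 genes were called in KO growth, 5630 to 7551 in WT growth and 462 to 665 for their difference. The share of WT rises of at least 2-fold called in KO, 72.5%, became 65.0% with a pseudocount of 0.1, 84.8% with a pseudocount of 5, 76.5% with a filter at 5 RPKM and 77.7% with nFGO, and 58.7% to 74.9% with 1 library left out. The share of WT falls, 78.4%, became 69.9%, 85.4%, 80.8% and 81.9% under the same settings, and 65.5% to 78.5% with 1 library left out. The count of differences was 125 to 356 with 1 library left out, and that of KO calls 4203 to 4594. The cause of these movements was not tested. Replicate numbers did not pair the libraries (correlation of replicate deviations -0.037 to 0.096). With a replicate block, 6099 genes were called in KO growth, 7106 in WT growth and 539 for the difference. With the numbers of the KO FGO pair exchanged, an alternative chosen after seeing the data, the KO count was 6037. Choosing growth genes in nFGO against GO1 was also added after seeing the data. Of 1903 values of 137 named genes in KO growth, 1853 kept their call, 50 lost it and 0 reversed. The naming rules mostly took called genes, and the largest changes only where they stayed called with each library left out. The choice therefore largely fixed these counts, which do not describe all genes. With 2 libraries a group, changes of 1.5-fold were often missed in the simulation, which changed far fewer genes than were called in the data. How often such changes were missed in the data is not known, and depth is unknown.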
